A study of Mus musculus with 2 samples.

Results

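The small leucine-rich proteoglycans examined here were 9 genes, *Dcn*, *Bgn*, *Fmod*, *Lum*, *Ogn*, *Prelp*, *Omd*, *Aspn* and *Kera*, taken by symbol from the 32285 genes measured, and each symbol named 1 row in both libraries. The samples were temporomandibular joints (TMJs) of wild-type C57BL/6 mice, 8 to 10 weeks old per the labels, and the study's methods give female C57BL/6J mice injected at 8 weeks. One library came from joints that received bilateral injections of 10 uL PBS, and the other from joints that received 10 uL of CFA (complete Freund's adjuvant, 5 mg/mL), an emulsion that provokes local inflammation, and both were collected 3 weeks after injection. The tissue taken was the whole joint, from condyle and disc to the adjoining bone, ligament and muscle, and after digestion CD45+ cells were depleted, so each library mixed the cells of all these tissues. The methods give n = 3 for the joints and 1 digestion tube per condition, so each condition was 1 sample. No test between PBS and CFA was therefore possible, and the 95% intervals below cover counting error only.

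The family consists of secreted proteins built on a core of leucine-rich repeats, most of which carry glycosaminoglycan chains. They bind collagen fibrils and help to set fibril diameter and spacing, and several also bind growth factors such as TGF-beta or cell-surface receptors. Tendon, cartilage, bone, skin and cornea are the tissues for which the members are best known, and the TMJ contains the first 3 of these.

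After filtering, 2667 PBS cells with 27201994 UMIs (single captured RNA molecules) and 4014 CFA cells with 44432717 UMIs remained, with medians of 7022 and 6509.5 UMIs per cell. Cells were clustered with the 9 members and 9 related genes left out of the clustering, and clusters were named "-like" from marker genes, which gave 17 named classes, while 389 PBS and 801 CFA cells stayed in 8 unnamed clusters. The libraries shared 2 barcode sequences among the kept cells. The hemoglobin limit removed 3178 PBS but only 339 CFA barcodes. Blood-lineage cells, set here as a background for the members, held member UMIs at levels that differed between the libraries. The summed members reached 1212 CPM (UMIs of the gene per 1e6 UMIs of the class) in PBS neutrophil-like cells against 202 in CFA, and 673 CPM in PBS B cell-like cells against 37.7 in CFA. In PBS B cell-like cells, 3 of 209 cells held 95% of the *Dcn* UMIs. Levels in blood-lineage classes are given beside several of the low levels below.

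Several members lie side by side in the mouse genome (GRCm38). *Dcn* (ENSMUSG00000019929, chr10:97479609-97518143, plus strand), *Lum* (ENSMUSG00000036446, chr10:97565128-97572703, plus) and *Kera* (ENSMUSG00000019932, chr10:97606879-97613692, plus) follow one another with gaps of 47.0 and 34.2 kb. *Aspn* (ENSMUSG00000021388, chr13:49544443-49567565, plus), *Omd* (ENSMUSG00000048368, chr13:49582462-49592822, plus) and *Ogn* (ENSMUSG00000021390, chr13:49608046-49624501, plus) fill 80.1 kb with gaps of only 14.9 and 15.2 kb. *Prelp* (ENSMUSG00000041577, chr1:133910304-133921414, minus) and *Fmod* (ENSMUSG00000041559, chr1:134037254-134048277, plus) are 116 kb apart on opposite strands, and *Bgn* (ENSMUSG00000031375, chrX:73483602-73495933, plus) lies alone. As described below, the 3 chr13 neighbours had different orders of levels over the cell classes, although in CFA *Aspn* and *Omd* were both highest in tenocyte-like cells, so their promoters are shown here from RefSeq (GRCm38.p6, plus strand, 250 bases before to 50 after the start). The windows are chr13:49544193-49544492 for *Aspn*, chr13:49582212-49582511 for *Omd* and chr13:49607765-49608064 for *Ogn*, each spanning the upstream region and the first transcribed bases. Capitals mark a TATA box core (TATAAA) or a RUNX core (TGTGGT) on either strand. In *Ogn* the run of capitals near the left end holds 2 overlapping matches to the TATA box core, 1 on each strand.
Aspn: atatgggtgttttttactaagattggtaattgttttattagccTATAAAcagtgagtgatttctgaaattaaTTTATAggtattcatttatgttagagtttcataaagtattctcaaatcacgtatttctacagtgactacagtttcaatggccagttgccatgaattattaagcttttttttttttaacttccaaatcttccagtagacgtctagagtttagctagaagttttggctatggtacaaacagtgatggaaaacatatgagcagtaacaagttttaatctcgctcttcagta
Omd: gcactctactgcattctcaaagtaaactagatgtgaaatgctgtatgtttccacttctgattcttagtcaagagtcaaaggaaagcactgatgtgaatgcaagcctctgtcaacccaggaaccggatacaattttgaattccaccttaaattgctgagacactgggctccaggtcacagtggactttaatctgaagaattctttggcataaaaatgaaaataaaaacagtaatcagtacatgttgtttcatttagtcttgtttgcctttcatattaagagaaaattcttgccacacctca
Ogn: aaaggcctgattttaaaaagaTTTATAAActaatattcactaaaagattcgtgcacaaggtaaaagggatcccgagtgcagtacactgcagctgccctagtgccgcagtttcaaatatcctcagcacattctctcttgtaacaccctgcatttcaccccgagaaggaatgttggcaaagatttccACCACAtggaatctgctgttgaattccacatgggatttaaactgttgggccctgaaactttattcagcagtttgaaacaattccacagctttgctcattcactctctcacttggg

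These letters are common: 13.6% of the 32851 mouse promoters of the same length hold TATAAA, 16.8% hold TGTGGT and 18.7% hold ACAAAG (a SOX core), counting both strands. Of the 7 members with a promoter in the table, *Aspn* and *Ogn* held TATAAA, *Ogn* alone held TGTGGT and *Kera* alone held ACAAAG. No member window held a CArG box, the serum response element core, which 1.63% of promoters hold. The *Aspn* window was 31.0% G and C, the *Omd* window 37.7% and the *Ogn* window 42.3%. The matches describe the letters only.

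The members were mainly transcripts of fibroblast-like and tenocyte-like cells. In fibroblast-like cells, the summed members reached 15933 CPM in PBS (95% interval 15826 to 16041, 462 cells) and 13355 in CFA (13259 to 13451, 370 cells). In tenocyte-like cells, which express the tendon marker *Tnmd*, they reached 15666 CPM in PBS (151 cells) and 15821 in CFA (111 cells). The fibroblast-like and tenocyte-like PBS intervals overlapped, and which of them was higher depended on how cells were classed. Among classes with at least 30 cells in both libraries, chondrocyte-like cells came next at 9671 CPM in PBS (94 cells) and 9609 in CFA (85 cells). Osteoblast-like cells, under that minimum in CFA, had 5403 CPM in PBS (36 cells) and 5911 in CFA (28 cells). The few perineurial-like cells, the sheath cells of nerves, stood at 11344 CPM in PBS (13 cells) and 10100 in CFA (8 cells), and 3 cells held 44.1% and 68.0% of those UMIs. Lining fibroblast-like cells, led by the lubricin gene *Prg4* among their markers, had 3104 CPM in PBS (31 cells) and were too few in CFA (6 cells) for a comparison. Mural-like, myelinating Schwann-like and satellite-like cells stood between 705 and 1935 CPM in the 2 libraries, and endothelial-like cells at 263 in PBS and 188 in CFA. CFA macrophage-like and osteoclast-like cells were at 26.1 and 24.8 CPM. Levels count molecules captured at the 3′ end of a transcript and are not divided by gene length.

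**Figure D1:**
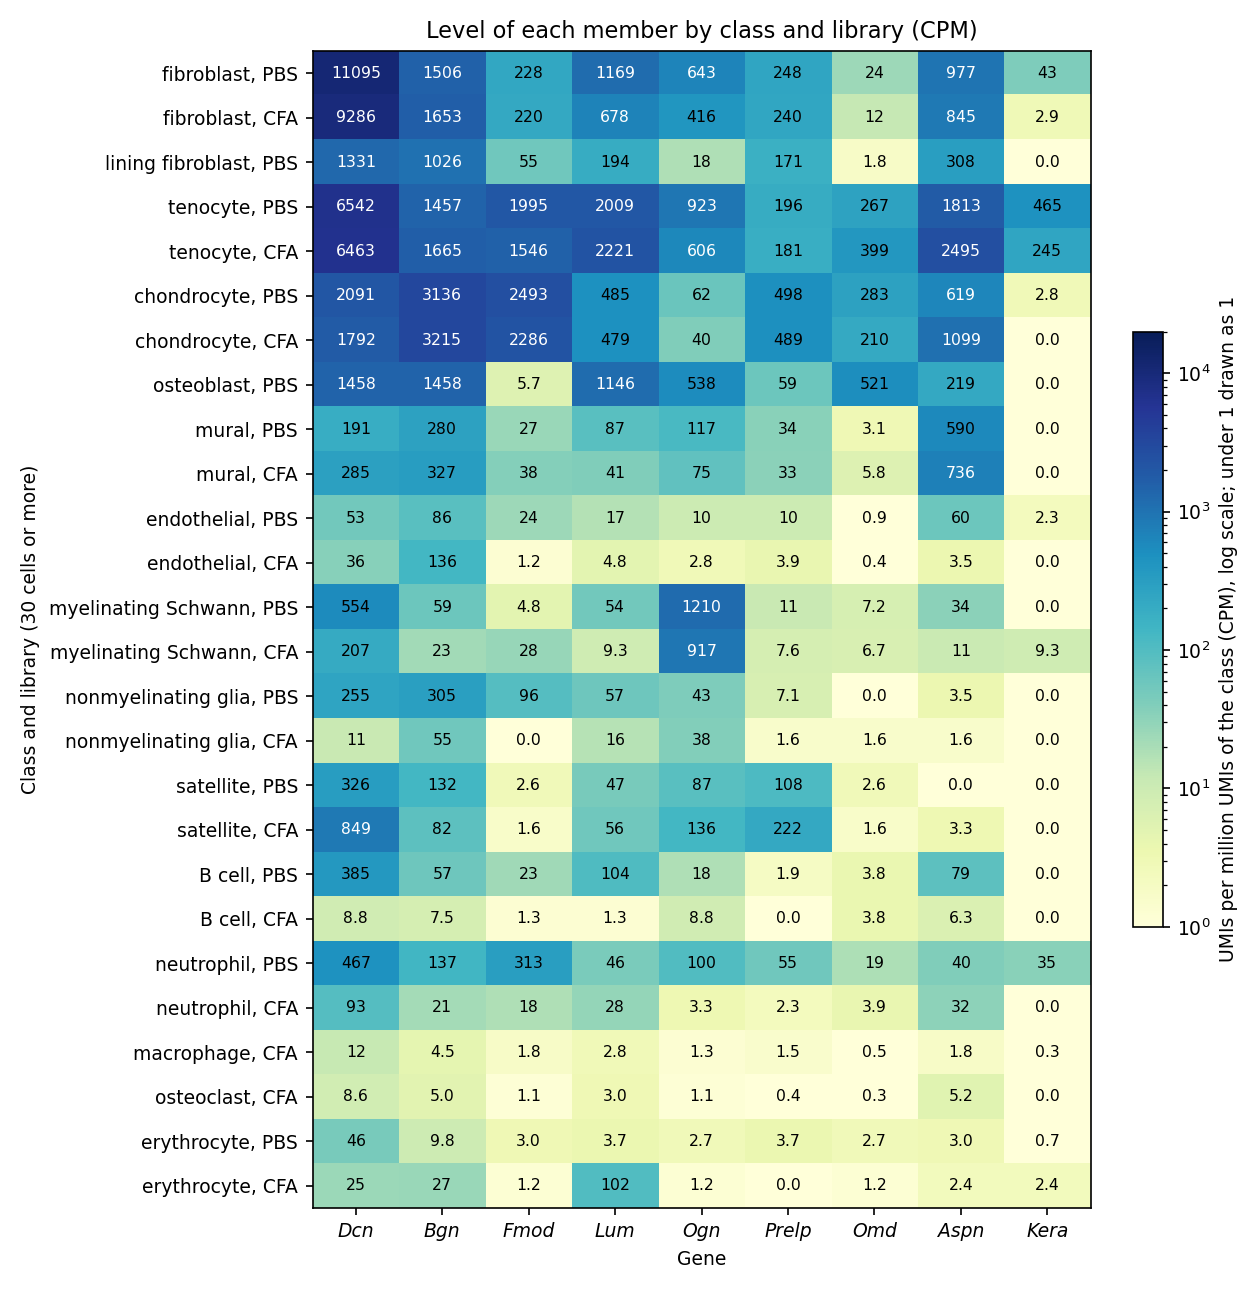
Level of each of the 9 members (columns, in CPM, colour on a log scale with the value printed) in each class and library with at least 30 cells (rows). *Dcn* is darkest in fibroblast-like cells (11095 and 9286 CPM), *Bgn* and *Fmod* in chondrocyte-like cells, *Kera* in tenocyte-like cells, and *Ogn* is the only dark cell of the Schwann-like rows besides *Dcn*.

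Single cells usually carried several members at once. After each cell was thinned to 1000 UMIs, 89.4% of PBS and 91.0% of CFA tenocyte-like cells held at least 3 of the 9 members. The same share was 72.0% and 81.2% in chondrocyte-like cells and 70.7% and 58.7% in fibroblast-like cells. It was 42.9% in PBS osteoblast-like cells, and at most 3.65% in mural-like, Schwann-like and endothelial-like cells of either library. The median thinned tenocyte-like cell held 4 members in PBS and 5 in CFA, and the highest number in any cell was 8, in a CFA chondrocyte-like cell.

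The mixture of members separated the classes. *Dcn* made up 69.6% of the member UMIs of PBS fibroblast-like cells, 41.8% in tenocyte-like and 21.6% in chondrocyte-like cells. Chondrocyte-like cells held more *Bgn* (32.4%) and *Fmod* (25.8%) than *Dcn*. *Aspn* was 44.4% of the member UMIs of PBS mural-like cells and 47.8% in CFA, and *Ogn* was 62.5% and 75.3% in myelinating Schwann-like cells. *Omd* reached 9.64% in PBS osteoblast-like cells and stayed at or under 2.93% in the fibroblast-like, tenocyte-like and chondrocyte-like cells of both libraries.

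**Figure D2:**
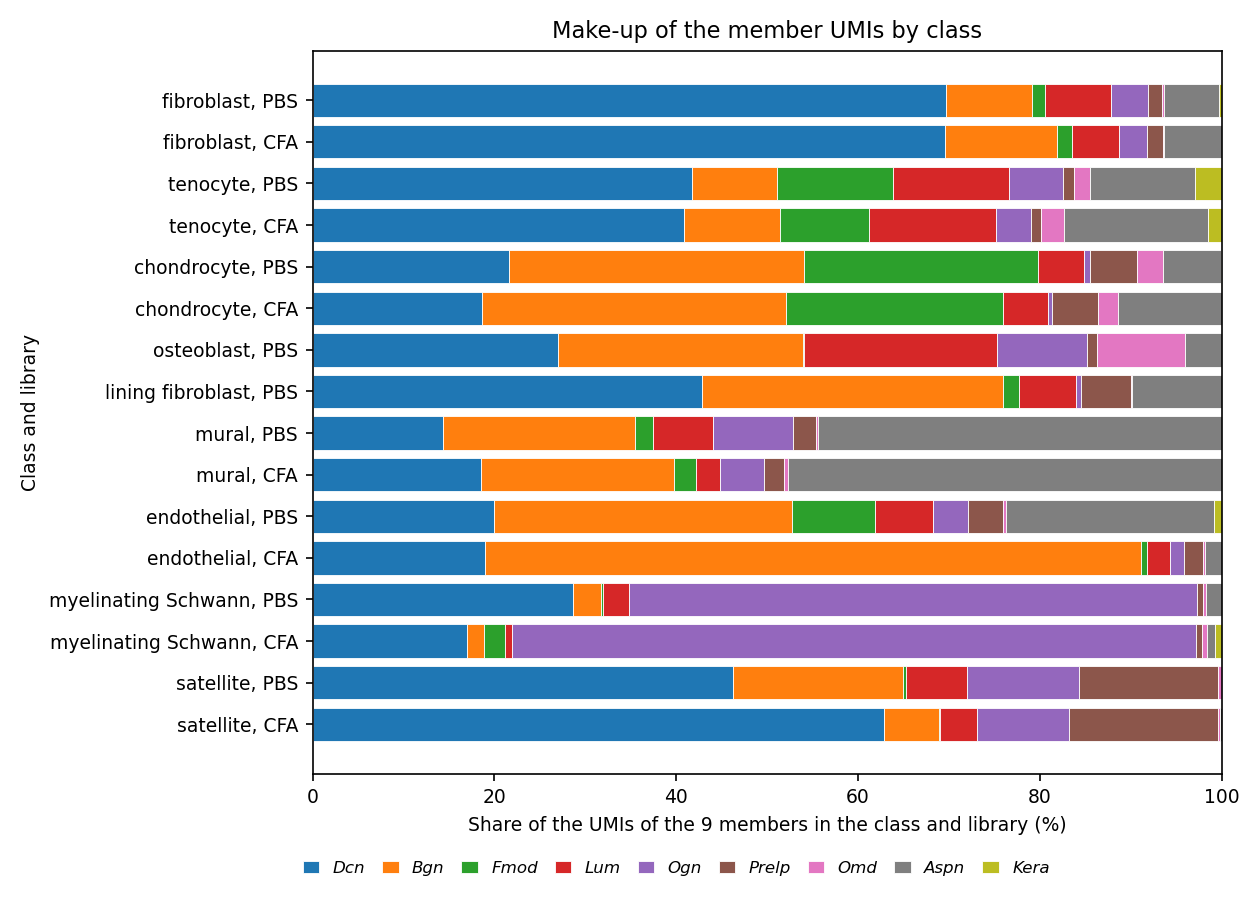
Share of the UMIs of the 9 members taken by each member (horizontal axis, percent) in each class and library, with 1 stacked bar per class and library. *Dcn* fills most of the fibroblast-like bars, *Aspn* the largest part of the mural-like bars (44.4% in PBS) and *Ogn* most of the Schwann-like bars (62.5% in PBS).

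*Dcn* encodes decorin, which binds collagen fibrils and sequesters TGF-beta, and it was the most abundant member, with 54.5% of all member UMIs in PBS and 53.3% in CFA. Its level in fibroblast-like cells was 11095 CPM in PBS and 9286 in CFA, in tenocyte-like cells 6542 and 6463, and in chondrocyte-like cells 2091 and 1792. The intervals of these 3 classes did not overlap in either library, so their order was the same in both. After thinning, 94.8% of PBS and 91.7% of CFA fibroblast-like cells held a *Dcn* UMI, against 91.4% and 96.4% of tenocyte-like cells. Among blood-lineage classes the share was 18.2% in PBS neutrophil-like cells and 5.75% or less in the others (median depths of 7971 UMIs in PBS neutrophil-like and 11419.5 in PBS fibroblast-like cells). The share in mural-like cells (5.0% and 5.02%) and in myelinating Schwann-like cells (4.74% and 4.19%) was within that background, and 3 cells held 82.4% of the *Dcn* UMIs of PBS mural-like cells. In 13 PBS and 8 CFA perineurial-like cells *Dcn* stood at 9622 and 9312 CPM. Osteoblast-like cells had 1458 CPM in PBS and 2752 in CFA, with 64.7% and 47.5% of those UMIs in 3 cells.

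*Bgn*, which encodes biglycan, the closest relative of decorin and a proteoglycan of bone and cartilage, was highest in chondrocyte-like cells, with 3136 CPM in PBS (3055 to 3219) and 3215 in CFA (3135 to 3296). PBS fibroblast-like, osteoblast-like and tenocyte-like cells followed at 1506, 1458 and 1457 CPM, with overlapping intervals. After thinning, 76.3% of PBS and 94.1% of CFA chondrocyte-like cells held a *Bgn* UMI. Of the members, *Bgn* was also the main one in endothelial-like cells, at 85.9 CPM in PBS and 136 in CFA, where it took 72.2% of the member UMIs in CFA. PBS neutrophil-like cells read 137 CPM of *Bgn*, above the PBS endothelial-like level, and CFA neutrophil-like cells 21.3. Within the endothelial-like class, the cluster led by *Plvap* and *Selp*, genes of venular endothelium, had 225 and 231 CPM, while the cluster led by *Nebl* and *Sema3g* had 26.3 and 77.5.

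*Fmod* (fibromodulin, which modifies collagen cross-linking in tendon and cartilage) was high in fewer classes. Chondrocyte-like cells had 2493 CPM in PBS and 2286 in CFA, and tenocyte-like cells 1995 and 1546. After thinning, 65.6% and 77.6% of chondrocyte-like and 60.3% and 61.3% of tenocyte-like cells held a UMI. Fibroblast-like cells were at 228 and 220 CPM, a level carried by few cells: 63 of 462 PBS and 46 of 370 CFA cells held any *Fmod* UMI, and 3 cells held 30.0% and 39.0% of them. PBS neutrophil-like cells read 313 CPM, of which 3 cells held 93.6%. Outside the named classes, the unnamed cluster led by *Dok6* and *Gpc5* (11 PBS and 59 CFA cells) read 516 CPM of *Fmod* in CFA. There 49 of 59 CFA cells held a *Fmod* UMI. Of its 2060 member UMIs in CFA, 44.3% were *Lum* and 23.4% *Fmod*.

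*Lum* encodes lumican, a keratan sulfate proteoglycan that organizes collagen in cornea and tendon. It was highest in tenocyte-like cells, with 2009 CPM in PBS and 2221 in CFA. PBS fibroblast-like (1169 CPM) and osteoblast-like (1146 CPM) cells did not differ beyond their intervals, though 3 cells held 40.5% of the osteoblast-like UMIs. CFA fibroblast-like cells were at 678 and CFA osteoblast-like cells (28 cells) at 1197, of which 3 cells held 37.3%. *Prelp*, whose basic amino terminus binds heparan sulfate and so links collagen to basement membranes, was highest in chondrocyte-like cells, at 498 CPM in PBS and 489 in CFA. Fibroblast-like cells had 248 and 240 CPM, tenocyte-like cells 196 and 181, and the small lymphatic-like class (18 PBS and 12 CFA cells) 329 and 367. In the lymphatic-like class, 3 cells held 50.6% and 85.7% of the *Prelp* UMIs. Neutrophil-like cells read 54.9 CPM of *Prelp* in PBS and 2.29 in CFA. After thinning, 7 of 18 PBS and 6 of 12 CFA lymphatic-like cells held a *Prelp* UMI, while no neutrophil-like, macrophage-like or osteoclast-like cell did. That 0 of 336 CFA neutrophil-like cells allows a share of up to 1.09% (exact 95% bound) of cells with a UMI at this depth, not of cells expressing the gene.

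*Kera* encodes keratocan, best known from the cornea, where it keeps collagen fibrils regularly spaced. In the TMJ libraries it was almost a tenocyte-like transcript: that class held 77.4% of the *Kera* UMIs of PBS and 91.1% of those of CFA. Its level there was 465 CPM in PBS (435 to 496) and 245 in CFA (219 to 273), and it was carried by 49 of 151 PBS and 16 of 111 CFA cells. In CFA, 3 cells held 65.3% of the UMIs of the class, against 26.1% in PBS. Mural-like cells held no *Kera* UMI in either library (0 of 180 PBS and 0 of 219 CFA thinned cells, which allows up to 2.03% and 1.67% of cells with a UMI at that depth), and chondrocyte-like cells held 5 in PBS and none in CFA.

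The chr13 neighbours had different cell-class orders. *Aspn* encodes asporin, which binds collagen and TGF-beta and has been studied as an osteoarthritis gene. It was highest in tenocyte-like cells (1813 CPM in PBS, 2495 in CFA). Fibroblast-like cells (977 and 845) came next in PBS, and chondrocyte-like cells (619 and 1099) came next in CFA. *Aspn* was also the main member of mural-like cells, the contractile cells around vessels, with 590 CPM in PBS (557 to 625) and 736 in CFA (701 to 772). After thinning, 44.4% of PBS and 48.9% of CFA mural-like cells held an *Aspn* UMI, against at most 1.79% in any blood-lineage class with at least 30 cells, so *Aspn* was in mural-like cells at a share near that of fibroblast-like cells (40.8% and 37.1%). Its neighbour *Omd* (osteomodulin, a keratan sulfate proteoglycan of bone) was highest in PBS osteoblast-like cells at 521 CPM (461 to 586), followed by chondrocyte-like (283) and tenocyte-like cells (267), whose intervals overlapped. In the PBS osteoblast-like cells, 3 of 36 cells held 56.2% of the *Omd* UMIs, so this rank rested on few cells. CFA osteoblast-like cells read 217 CPM, CFA tenocyte-like cells 399 and CFA chondrocyte-like cells 210, and fibroblast-like cells were under 25 CPM in both libraries. The third neighbour, *Ogn* (osteoglycin, also called mimecan), had its highest level outside connective tissue, in myelinating Schwann-like cells, which wrap axons with myelin. There it read 1210 CPM in PBS (1150 to 1273) and 917 in CFA (863 to 973), above tenocyte-like (923 and 606) and fibroblast-like cells (643 and 416). After thinning, 54.5% of PBS and 52.3% of CFA myelinating Schwann-like cells held an *Ogn* UMI, against 2.17% and 5.66% of nonmyelinating glia-like cells and at most 4.55% of any blood-lineage class. The sum of 9 fibroblast markers in the same Schwann-like cells was 1224 CPM in PBS and 482 in CFA, with *Pdgfra* among them at 4.01 and 5.06. In fibroblast-like cells the same markers summed to 19830 and 16037 CPM, with *Pdgfra* at 353 and 345. *Pdgfra* was also at 131 and 235 CPM in osteoblast-like cells. The part of fibroblast RNA in the *Ogn* level of Schwann-like cells was not tested.

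**Figure D3:**
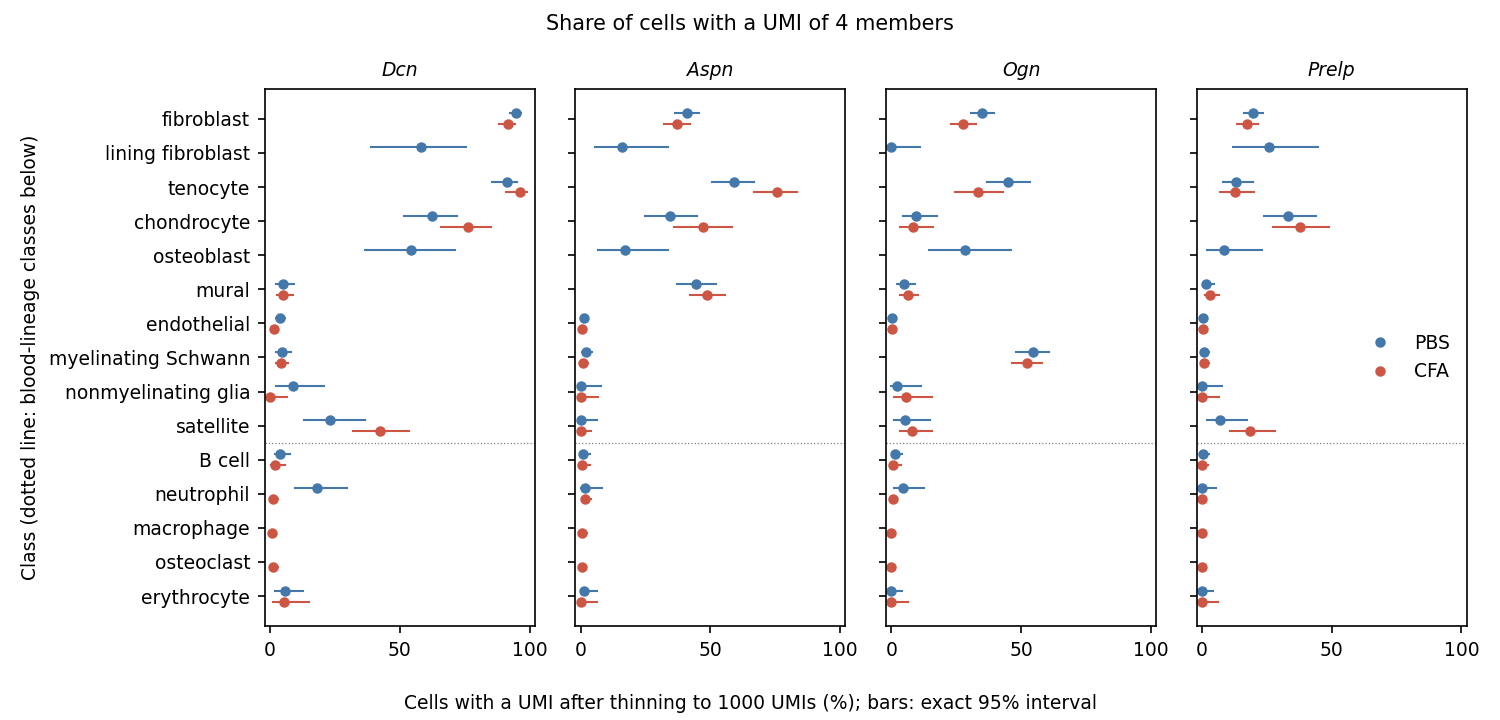
Share of cells with at least 1 UMI of *Dcn*, *Aspn*, *Ogn* and *Prelp* (horizontal axis, percent, after thinning to 1000 UMIs, bars for the exact 95% interval) by class, PBS in blue and CFA in red, with blood-lineage classes below the dotted line. Mural-like cells are near 5% for *Dcn* but at 44.4% and 48.9% for *Aspn*, and myelinating Schwann-like cells stand out for *Ogn* at 54.5% and 52.3%.

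Across classes, the members followed different genes. Pearson's r of log2(CPM + 10) was computed over 26 points (15 classes, each library 1 point, so that points of a class share cell type and points of a library share depth) against 8807 genes at 50 CPM or more in some class, as a description. The most alike genes outside the members were *Col3a1* for *Dcn* (r = 0.909), *Fkbp10* for *Bgn* (0.964), *Ecrg4* for *Fmod* (0.973), *Serpinf1* for *Lum* (0.965) and *Col6a1* for *Prelp* (0.943). They were *Sp7*, a transcription factor of osteoblasts, for *Omd* (0.95), *Shox2* for *Aspn* (0.964), *Tnmd* for *Kera* (0.959) and *Fgf7* for *Ogn* (0.869). *Col3a1*, *Sp7* and *Tnmd* were themselves among the markers used to name the classes. Among the members, *Dcn* and *Lum* were close (r = 0.899), while *Prelp* and *Kera* were the least alike (0.391), next to *Bgn* and *Kera* (0.396) and *Fmod* and *Ogn* (0.419). RNA released from other cells is also common to the points of a library, and its part in these values was not tested.

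The comparison of CFA with PBS asked whether these matrix genes differed in the joint 3 weeks after adjuvant. The summed members of fibroblast-like cells stood lower in the CFA library, with a CFA to PBS ratio of 0.838 (95% counting interval 0.830 to 0.846), and those of tenocyte-like cells (1.01, 0.992 to 1.03) and chondrocyte-like cells (0.994, 0.973 to 1.01) stood near 1. Past a difference of 2-fold with at least 10 UMIs over both libraries, 2 of 9 members were lower in CFA fibroblast-like cells and none was higher, where 16.3% of 14538 genes passed in either direction (9.62% higher and 6.69% lower). The members' median ratio was 0.837, against 1.0 over all genes of the class. No member passed 2-fold in tenocyte-like cells (9 members, background 13.7%) or in chondrocyte-like cells (8 members, background 16.8%). Over the 8 classes outside the blood lineages with at least 30 cells in both libraries, 4 of 61 member and class pairs were past 2-fold higher and 17 lower in CFA, where 15.9% of all gene and class pairs passed (8.08% higher and 7.81% lower). Of the 17 lower pairs, 6 were in endothelial-like, 4 in myelinating Schwann-like and 4 in nonmyelinating glia-like cells, where the PBS levels were low. With the blood-lineage classes included, 6 of 82 pairs were higher and 32 lower (background 9.25% and 8.91%, together 18.2%). With at least 100 UMIs over both libraries, blood-lineage classes included, 15 of 53 pairs passed in either direction (background 7.52%). They included *Dcn* and *Lum* in B cell-like cells and *Dcn*, *Bgn* and *Fmod* in neutrophil-like cells. *Kera* and *Omd* were the ones in fibroblast-like cells, and none was in tenocyte-like or chondrocyte-like cells. Only *Dcn* and *Prelp* in satellite-like cells were higher in CFA, and the rest were lower.

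**Figure D4:**
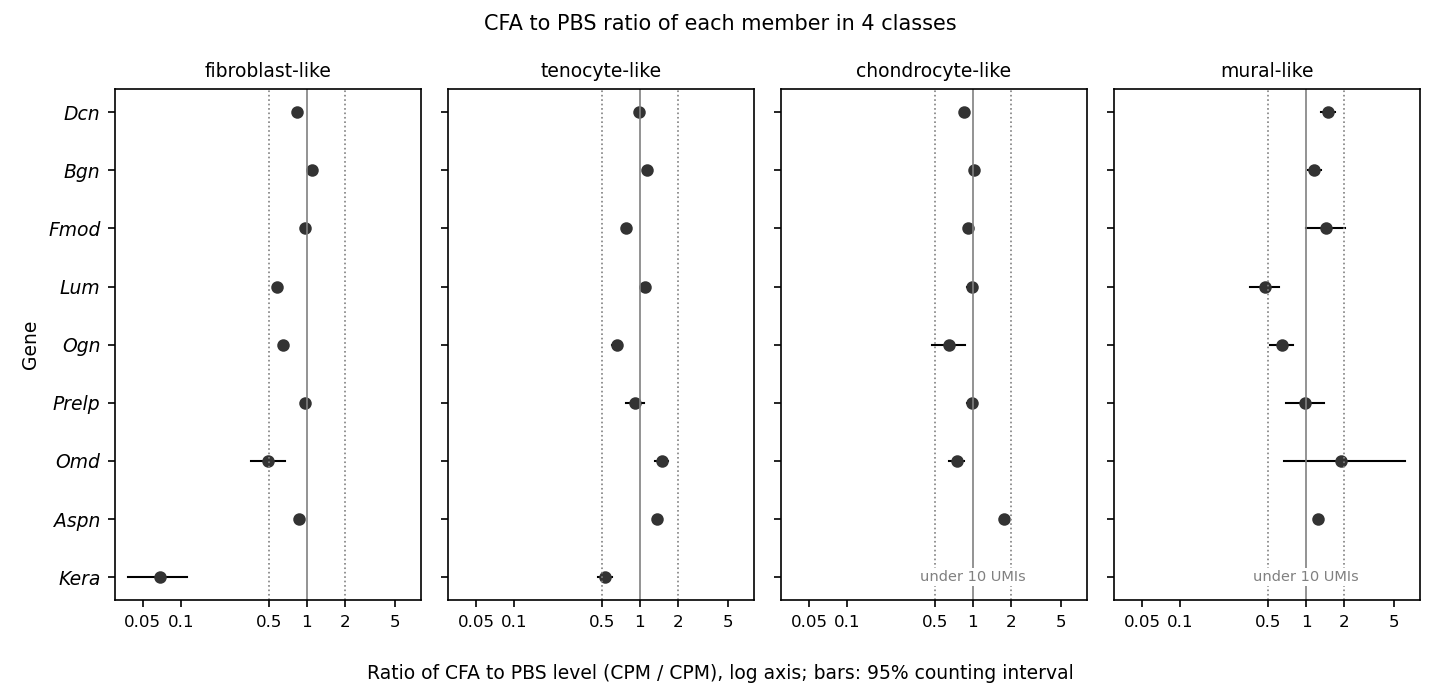
CFA to PBS ratio of the level of each member (horizontal axis, log scale, bars for the 95% counting interval) in fibroblast-like, tenocyte-like, chondrocyte-like and mural-like cells, with dotted lines at 0.5 and 2. *Kera* lies far to the left in fibroblast-like cells (0.0679), *Lum* and *Ogn* lie between 0.5 and 1 there, and *Aspn* lies to the right of 1 in tenocyte-like, chondrocyte-like and mural-like cells.

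In fibroblast-like cells, *Lum* was at 1169 CPM in PBS and 678 in CFA (ratio 0.580, 0.557 to 0.604), and *Ogn* at 643 and 416 (0.647, 0.613 to 0.682). *Kera* had 226 UMIs in 32 of 462 PBS cells and 16 UMIs in 5 of 370 CFA cells (ratio 0.0679, 0.0381 to 0.113). These are levels of 42.5 and 2.89 CPM, and neutrophil-like cells read 34.8 CPM in PBS, from 4 cells, and 0 in CFA. *Omd*, the other member past 2-fold, was at 24.1 and 11.9 CPM (0.494, 0.362 to 0.670), close to the threshold and from 128 and 66 UMIs, while neutrophil-like cells read 18.8 and 3.93 CPM. The part of RNA from other cells in both ratios was not tested. *Bgn* was slightly higher in CFA (1.10), and *Aspn* (0.865), *Fmod* (0.969) and *Prelp* (0.969) were close to 1 and on either side of it under other ways to class or count cells. Thinned shares gave the same order for *Lum*, with 54.1% of PBS and 38.0% of CFA fibroblast-like cells holding a UMI.

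Of the classes with at least 30 cells in both libraries and 50 CPM or more of *Ogn* in PBS, 5 outside the blood lineages stood lower in CFA, at ratios of 0.647 in fibroblast-like, 0.657 in tenocyte-like, 0.646 in chondrocyte-like, 0.641 in mural-like and 0.758 in myelinating Schwann-like cells. Its thinned share in mural-like cells (5.0% and 6.39%) was close to the 4.55% of PBS neutrophil-like cells. Neutrophil-like cells read 100 CPM in PBS and 3.28 in CFA. In satellite-like cells it was at 86.8 and 136 CPM (1.56). *Aspn* showed the opposite direction in 3 of these classes: it was at 619 and 1099 CPM in chondrocyte-like cells (1.78, 1.65 to 1.91), at 1813 and 2495 in tenocyte-like (1.38, 1.31 to 1.44) and at 590 and 736 in mural-like cells (1.25, 1.16 to 1.35). After thinning, 34.4% of PBS and 47.1% of CFA chondrocyte-like cells held an *Aspn* UMI, with overlapping intervals (24.9 to 45.0 and 36.1 to 58.2). The share of tenocyte-like cells was 58.9% and 75.7%, whose intervals overlapped only slightly (50.7 to 66.9 and 66.6 to 83.3). *Omd* was at 267 and 399 CPM in tenocyte-like cells (1.49) and at 283 and 210 in chondrocyte-like cells (0.741), and *Kera* in tenocyte-like cells was at 0.527 of its PBS level (0.464 to 0.599).

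The fibroblast-like class held 3 clusters that differed in their member levels. The cluster led by *Angptl1* and *Cilp* (162 PBS and 65 CFA cells) had the highest summed level, 17974 CPM in PBS and 19533 in CFA (ratio 1.09). The adventitial fibroblast-like cluster led by *Pi16* and *Mfap5* (135 and 164 cells) had 14672 and 12650 (0.862), and the cluster led by *Apod* and *Inmt* (165 and 141 cells) had 14416 and 9990 (0.693). The lower *Lum* level in CFA was seen in the last 2 clusters, at 1088 and 556 CPM (0.511) in the adventitial one and at 1205 and 513 (0.426) in the *Apod*-led one, while the *Angptl1*-led cluster was at 1215 and 1250 (1.03). *Ogn* showed the reverse arrangement, with its largest difference in the *Angptl1*-led cluster, at 702 and 197 CPM (0.281, 0.241 to 0.325), against 0.744 and 0.874 in the others. *Fmod* was at 467 and 895 CPM in the *Angptl1*-led cluster (1.92), where 3 cells held 36.4% of the PBS and 50.7% of the CFA UMIs, and at 9.96 and 53.6 in the adventitial one (5.38, 3.31 to 9.30), but 3 cells held 88.5% of the *Fmod* UMIs of the adventitial CFA cells. *Bgn* in the adventitial cluster was at 1136 and 1708 CPM (1.5). *Omd* passed 2-fold only in the adventitial cluster, at 37.1 and 11.1 CPM. It was at 20.4 and 13.6 in the *Apod*-led and at 15.5 and 12.4 in the *Angptl1*-led cluster. Without the adventitial cluster, fibroblast-like cells had 17.4 and 13.0 CPM of *Omd*, not past 2-fold.

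*Kera* was lower in CFA in each of the 3 fibroblast-like clusters. It had 62 UMIs in PBS and none in CFA in the *Apod*-led cluster (at least 18.8-fold lower, with 3 UMIs as the floor in CFA), 15 and none in the adventitial cluster (at least 8.98-fold lower) and 149 and 16 in the *Angptl1*-led cluster (0.218). In PBS, 3 cells held 82.3% of the 62 UMIs, and only 2 cells held the 15. Past 2-fold, 2 of 9 members were lower and none higher in the *Apod*-led cluster (background 6.86% lower and 13.4% higher). The counts were 2 lower and 1 higher in the adventitial cluster (background 7.59% and 10%) and 2 lower and none higher in the *Angptl1*-led cluster (8.54% and 6.18%). The clusters took unequal parts of the class in PBS and CFA, so a class ratio mixes levels and cell numbers. Without the *Angptl1*-led cluster, an alternative chosen after its numbers were seen, the class ratio of the summed members was 0.818 and *Lum* was the third member past 2-fold (0.478).

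**Figure D5:**
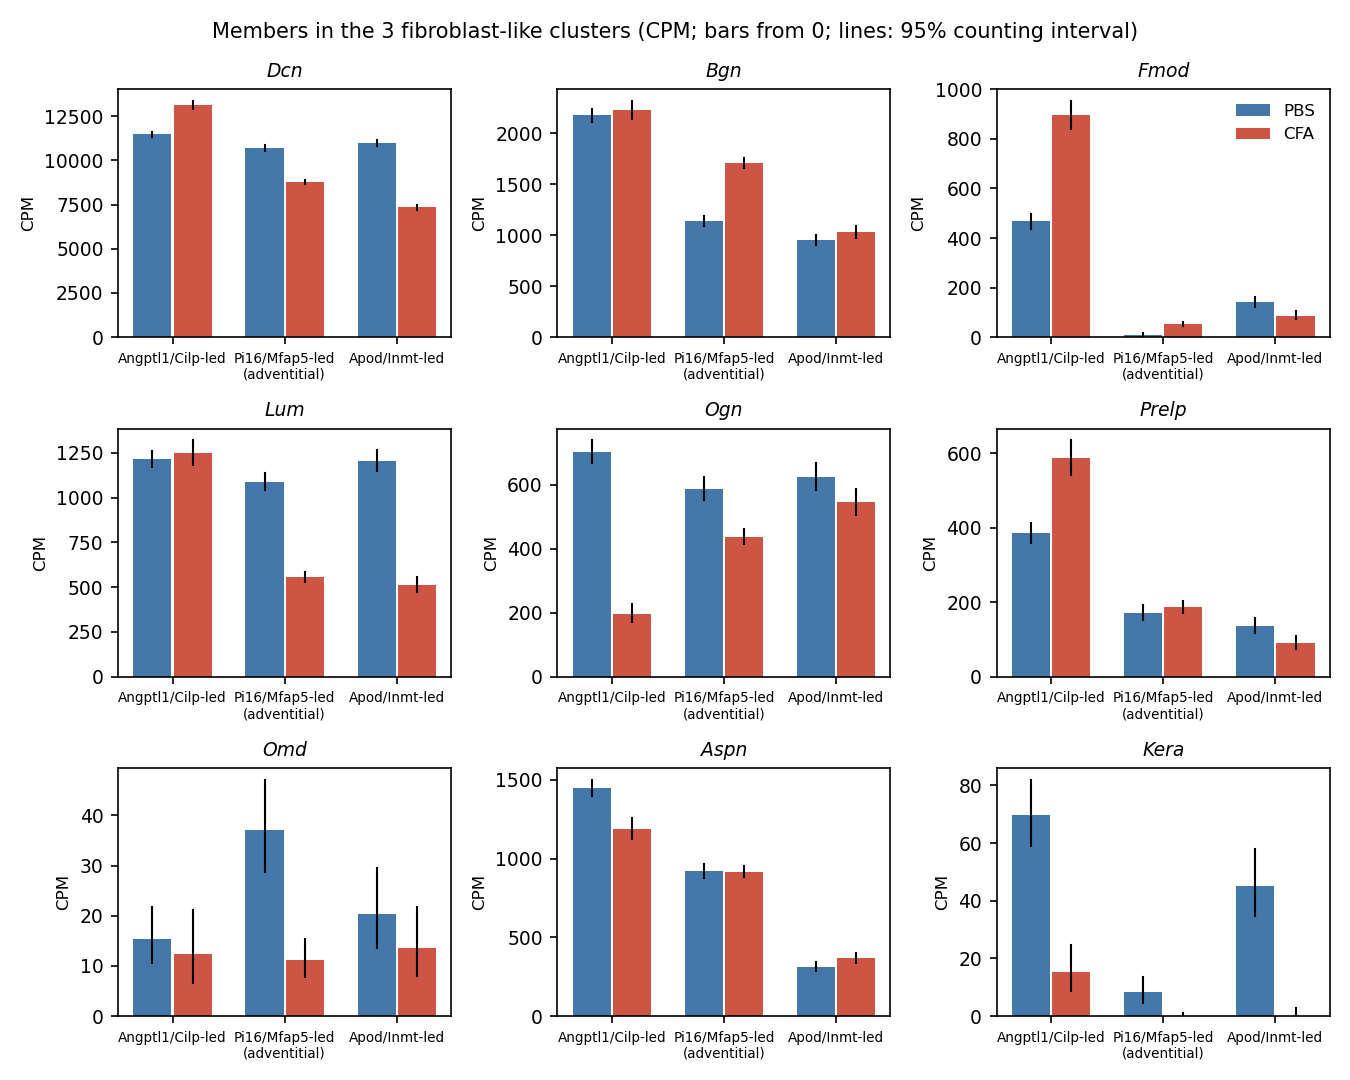
Level of each member (vertical axis, CPM, bars from 0, lines for the 95% counting interval) in the 3 fibroblast-like clusters, PBS in blue and CFA in red. *Lum* is lower in CFA in the adventitial and *Apod*-led clusters but not in the *Angptl1*-led cluster (1215 and 1250 CPM), *Ogn* differs most in the *Angptl1*-led cluster, and *Kera* is at 0 in CFA in the adventitial and *Apod*-led clusters.

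Satellite-like and Schwann-like cells also held members past 2-fold. In satellite-like cells, the stem cells of muscle fibers, *Dcn* was at 326 CPM in PBS and 849 in CFA (2.60, 2.13 to 3.19) and *Prelp* at 108 and 222 (2.06, 1.44 to 3.00), the 2 of 5 members past 2-fold there, both higher (background 11.2% higher). The *Dcn* UMIs were spread over 20 of 56 PBS and 62 of 88 CFA cells. The thinned shares were 23.2% (13.0 to 36.4) and 42.5% (32.0 to 53.6). PBS neutrophil-like cells had 18.2% (9.76 to 29.6), so the PBS share overlapped this background and only the CFA share lay above it. The 9 fibroblast markers of these satellite-like cells summed to 3510 CPM in PBS and 2665 in CFA, with 4 and 2 of them at 0. *Pdgfra* was at 0 in both libraries. The part of fibroblast RNA in these *Dcn* levels was not tested. In myelinating Schwann-like cells, 4 of 9 members were past 2-fold lower and 2 higher in CFA (background 5.14% lower and 7.26% higher). *Dcn* was at 554 and 207 CPM (0.373), and 3 cells held 68.5% and 81.6% of it, while the fibroblast markers of the class were at 1224 and 482 CPM. The 2 higher members were low, with *Fmod* at 6 and 33 UMIs (ratio 5.78, 2.39 to 16.9), of which 3 cells held 78.8% in CFA, and *Kera* at 0 and 11 UMIs in 2 cells (at least 3.85-fold higher, with 3 UMIs as the floor in PBS).

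Nonmyelinating glia-like cells had 766 CPM of the summed members in PBS and 125 in CFA, with 4 of 5 members past 2-fold lower (background 9.07% lower), and 3 cells held 95.8% of their PBS *Dcn* UMIs. In endothelial-like cells, 6 of 8 members were past 2-fold lower in CFA (background 7.33% lower), among them *Aspn* at 60.0 and 3.54 CPM (B cell-like cells 79.4 and 6.29) and *Fmod* at 24.0 and 1.24. In PBS, 3 of 539 cells held 89.3% of the *Fmod* and 50.6% of the *Aspn* UMIs, and the fibroblast markers of the class were at 273 and 104 CPM. The endothelial-like class left out the unnamed clusters led by *Timp4* and *Gpihbp1* (172 PBS and 198 CFA cells) and by *Ccdc85a* and *Ablim3* (48 and 185 cells). These held 7 of 7 and 6 of 7 endothelial markers. In mural-like cells, 1 of 8 members was past 2-fold lower (background 7.1% lower), *Lum* at 87.2 and 41.0 CPM, of which 3 cells held 94.7% in PBS. *Aspn* in mural-like cells was at 507 and 756 CPM (1.49) in the cluster led by *Myh11*, a smooth muscle myosin, and at 710 and 678 (0.954) in the cluster led by *Actg2*. Whether these low levels came from the cells themselves or from fibroblast RNA was not tested.

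Of the 9 related genes (*Epyc*, *Optc*, *Chad*, *Chadl*, *Ecm2*, *Podn*, *Podnl1*, *Nyx* and *Tsku*), 7 had enough UMIs in fibroblast-like cells, where 1 was past 2-fold higher and 3 lower (median ratio 0.563, background 9.62% higher and 6.69% lower). *Epyc*, which encodes epiphycan and lies 30.4 kb beyond *Kera*, was at 35.2 and 16.2 CPM (0.461), *Chad*, which encodes the cartilage protein chondroadherin, at 13.2 and 1.44 (0.110), and *Tsku* at 5.65 and 14.3 (2.52). *Chad* was highest in chondrocyte-like cells, at 1045 and 924 CPM. *Ecm2*, which lies 11.7 kb before *Aspn*, stood higher in CFA tenocyte-like cells as *Aspn* did, at 153 and 280 CPM (1.83), but was at 130 and 104 in fibroblast-like cells (0.803). In tenocyte-like cells 1 of 7 related genes was past 2-fold lower, and in chondrocyte-like cells 1 of 8 was past 2-fold higher (background in either direction 13.7% and 16.8%).

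Collagen chain genes, of fibrillar and other collagens, had median ratios below 1. Of 12 collagen chain genes, 1 was past 2-fold higher and 1 lower in fibroblast-like cells, beside 16.3% of all genes in either direction. Their median ratio there was 0.778, next to 0.837 for the members. *Col3a1* was at 12977 and 10704 CPM there (0.825), *Col12a1* at 63.8 and 134 (2.11) and *Col11a1* at 36.1 and 15.9 (0.439). None of the 12 passed 2-fold in tenocyte-like cells (background 13.7%, median 0.872, against 0.994 over all genes). In chondrocyte-like cells 1 was lower (background 16.8%, median 0.880, against 0.932 over all genes). Of 23 measured enzymes that build or sulfate glycosaminoglycan chains, 2 were past 2-fold higher and 1 lower in fibroblast-like cells, 1 and 0 in tenocyte-like, and 2 and 1 in chondrocyte-like cells. These 3, 1 and 3 of 23 genes stand beside 16.3%, 13.7% and 16.8% of all genes of the same classes. The higher ones in fibroblast-like cells were *Csgalnact1*, which starts chondroitin sulfate chains, at 77.2 and 185 CPM (2.40), and *Chst11*, a chondroitin sulfotransferase, at 56.1 and 116 (2.06). *Chst1*, a keratan sulfate sulfotransferase, was at 16.5 and 80.9 CPM in chondrocyte-like cells (4.89) and at 3.52 and 19.4 in tenocyte-like cells (5.51).

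Among 10 measured proteases that process or cleave proteoglycans, 2 were past 2-fold higher and none lower in fibroblast-like cells, 1 higher and 3 lower in tenocyte-like cells, and among 9 in chondrocyte-like cells 2 were higher and 1 lower (the same shares of all genes apply). *Mmp3*, a stromelysin that degrades proteoglycans, was at 48.8 and 195 CPM in fibroblast-like cells (4.00) but at 126 and 30.5 in tenocyte-like cells (0.243). *Mmp13*, the collagenase of cartilage, had the highest ratio of the list in fibroblast-like cells, with 3 UMIs in PBS and 1310 in CFA (0.565 and 236 CPM, ratio 419, 143 to 2032). It was at 37.5 and 269 CPM in chondrocyte-like cells (7.18) and at 737 and 1222 in tenocyte-like cells (1.66), and *Adamts5*, an aggrecanase, was at 77.9 and 159 in tenocyte-like cells (2.04). Of 9 ligands and receptors that decorin or biglycan are known to bind, none was past 2-fold higher and 1 lower in fibroblast-like cells, and 1 was higher and 2 lower in tenocyte-like cells, beside 16.3% and 13.7% of all genes. The higher one was *Tgfb2*, a TGF-beta ligand, at 140 and 354 CPM (2.53). In chondrocyte-like cells *Tlr2*, an innate immune receptor, was at 8.82 and 24.2 CPM (2.74) and 1 of the 9 was lower, beside 16.8% of all genes in either direction.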

How the data were processed

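Whole TMJ tissue of PBS- and CFA-injected mice was profiled by 3′ single-cell RNA-Seq, 1 library per condition. The authors deposited unnormalized UMI counts per gene and barcode, made with Cell Ranger 7.0.1 on mm10 per the labels. The labels and the study's methods differ in the digestion enzymes and the 3′ kit version named. Of 7671 PBS and 5709 CFA barcodes, those with at least 500 genes, at most 10% mitochondrial UMIs and at most 1% hemoglobin UMIs were kept. No per-sample column was left unused.

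Cells were clustered with Seurat 5.3.0 in R 4.3.3 (SCTransform with sctransform 0.4.2, integration anchors over 3000 genes, 200 principal components, resolution 1.5), with 18 genes (members and relatives) left out. Clusters were named when at least 3 markers of a class were detected, unless their leading genes held more markers of another class. Of the 8 unnamed clusters, 3 had under 3 markers, 4 were led by another class and 1 had few UMIs. Doublets were kept. As an alternative, Scrublet (scanpy 1.11.5) scored each cell and the top 5% were dropped.

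Counts were summed per class and library and divided by the UMIs of the class, in Python 3.11.15 with scipy 1.17.1. Intervals are exact Poisson (levels), exact Clopper-Pearson (shares) and exact conditional binomial (ratios), at 95%, and cover counting error only. Shares were computed after thinning each cell to 1000 UMIs, leaving out shallower cells. Ratios needed at least 10 UMIs over both libraries and 30 cells in each, and a level of 0 was replaced by 3 counts for a bound. With 1 library per condition no test was run. The ratio computation was tested on simulated data.

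All 9 members are named; of the lists, genes with the highest or lowest levels or ratios were named, and a few others among those past 2-fold were chosen after their values were seen. The members and lists were chosen with earlier results of these data known.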

Additional observations from a re-analysis of the deposited data

Results flagged for a closer look

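*Dcn* stood on opposite sides of 1 in different classes: its CFA to PBS ratio was 2.60 in satellite-like cells, against 0.373 in myelinating Schwann-like cells and 0.0434 in nonmyelinating glia-like cells. The glia-like ratio came from 72 PBS and 7 CFA UMIs, and 3 cells held 95.8% of the PBS ones. In Schwann-like cells, 3 cells held 68.5% and 81.6% of the UMIs. *Dcn* also read lower in CFA in neutrophil-like (467 and 93.4 CPM), B cell-like (385 and 8.80) and erythrocyte-like cells (46.3 and 25.4). The difference between the class ratios was not tested, since each class had 1 library per condition.

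Barcodes left out for holding over 1% hemoglobin UMIs also carried member UMIs. The 3178 such PBS barcodes had 2480 CPM of the summed members (2454 to 2503, counting error only), and the 339 such CFA barcodes had 402 CPM (383 to 423).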

How the results depend on the processing

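The CFA to PBS ratio of the summed members in fibroblast-like cells (0.838) stayed below 1 under each alternative run. It was 0.889 with 50 principal components, 0.898 with log-normalized counts merged without integration, 0.880 with the members among the clustering genes, 0.898 with a mitochondrial limit of 20%, 0.890 with no hemoglobin limit, 0.954 with each cell classed on its own, 0.871 without the cells of highest doublet score, 0.893 as a mean over cells and 0.918 with each cell thinned. Without the *Angptl1*-led cluster it was 0.818. The 2 members past 2-fold there became 1, *Kera*, with each cell classed on its own, without likely doublets, as a mean over cells and after thinning. *Omd* reversed to a ratio of 1.14 with each cell classed on its own. *Kera* stayed past 2-fold lower in all 13 alternatives, with ratios from 0 to 0.141, and *Lum* lay between 0.478 and 0.723.

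The highest summed level (15933 CPM, PBS fibroblast-like) passed to PBS tenocyte-like cells with 50 principal components (19079), no hemoglobin limit (18931), each cell classed on its own (19105), without likely doublets (16093) and as a mean over cells (16430), and to CFA tenocyte-like cells at the 20% limit (15733). It stayed with PBS fibroblast-like cells at 15170 without integration and at 18254 with mitochondrial, ribosomal and hemoglobin genes left out of the total. The PBS share with a *Dcn* UMI (94.8%) was 91.7% with the members among the clustering genes, 99.0% at the 20% limit, 92.0% with each cell classed on its own and 97.6% without thinning. The CFA share (91.7%) was 96.9% at the 20% limit, 94.7% with no hemoglobin limit, 94.9% at 2000 UMIs and 94.6% without thinning. With at least 100 UMIs, 15 of 53 member and class pairs passed 2-fold (background 7.52%), against 38 of 82 (background 18.2%), blood-lineage classes included. The causes of these shifts were not tested.

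The minimum of 100 UMIs and the removal of the *Angptl1*-led cluster were chosen after seeing the data. No paired analysis was possible because each condition had 1 library, and for the same reason leaving out a replicate was not possible. Counts of *Omd*, *Kera* and the members outside connective tissue were low in many classes, where a few cells often held most UMIs. Which members depth limits most was not tested.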
